A study of Mus musculus with 6 samples.

Results

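TFIID and Mediator are the large complexes that place RNA polymerase II at promoters, and their subunit genes were followed here in cultured mouse cortical neurons after lowering Cugbp1. The members were all genes whose symbol in the platform's probe annotation is Taf followed by a digit (without Taf15), Med followed by a digit, Tbp, Tbpl1, Cdk8 or Ccnc. Only probe sets annotated to a single gene were used. This gave 56 genes of 22071 on the array, and 55 of them were measured well enough to be tested, among 16524 genes in all. Taf10 was left out because 1 probe set belonged to it alone, while 6 others were shared with the annotated gene EG216185.

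The study measured total RNA on 6 exon arrays, with 3 arrays from neurons given a control shRNA and 3 from neurons given a Cugbp1 shRNA. Cugbp1 is an older symbol of Celf1, which encodes an RNA-binding protein that controls splicing and mRNA decay. All cells came from the cortex of C57BL/6 embryos at embryonic day 15, and both groups received AraC, which removes dividing cells, and lentivirus for 4 hours on culture day 5. RNA was taken on day 11, and 100 ng per array was labelled. The labels do not say whether the replicates are separate cultures, so the spread between arrays may be partly technical, and the treatment text of replicates 2 and 3 in both groups names Tdp-43 in place of Cugbp1. The series description speaks of motor neurons, while every array is labelled as cortical. Other effects of the shRNA cannot be told apart from those of lower Celf1. In mixed cultures, fewer cells of a type and less RNA per cell cannot be told apart.

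Celf1 itself fell to 38.7% of control (fold 0.387, 95% confidence interval 0.328 to 0.456, limma adjusted p = 0.0117), from 10.85, 10.80 and 10.76 in control replicates 1 to 3 to 9.59, 9.39 and 9.32 with the Cugbp1 shRNA, on the log2 scale. Tardbp, which encodes TDP-43, differed by -0.035 (limma, adjusted p = 0.961). Of 10 neuronal markers 9 were measured, with a list mean of 11.89 to 11.98 in control and 12.02 to 12.05 in Cugbp1 shRNA arrays. Of the 9, 4 had a higher mean, chiefly Gad2 and Gad1 (0.46), and the median difference was -0.044. The called markers were Gad2, a glutamate decarboxylase gene of inhibitory neurons, 0.77 higher, and Pdgfrb, a mural cell gene, at -0.81. With the replicate number as a block, limma also called Gad1 (adjusted p = 0.00837), the proliferation genes Cdk1 (0.41, adjusted p = 0.0154), Mki67 (0.24, adjusted p = 0.0293) and Top2a (0.27, adjusted p = 0.0283), all higher, and the astrocyte gene Aldh1l1 (-0.21, adjusted p = 0.0447). Markers of other cells were also measured. The mean of 7 astrocyte genes was 9.44 to 9.50 in control and 9.23 to 9.53 in Cugbp1 shRNA arrays, that of 6 oligodendrocyte lineage genes 9.42 to 9.69 and 9.56 to 9.70, and that of 6 microglia genes 6.51 to 6.73 and 6.49 to 6.70. For 4 endothelial and mural cell genes it was 6.999 to 7.39 and 6.82 to 7.10, for 4 fibroblast and meninges genes 8.18 to 8.68 and 8.21 to 8.60, and for 3 proliferation genes 8.36 to 8.91 and 8.61 to 9.21. The part of these cells in the results below was not tested.

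TFIID is built from the TATA-binding protein TBP and the TBP-associated factors, or TAFs, many of which pair through histone folds. It recognises core promoters and seeds the assembly of the preinitiation complex. Mediator connects DNA-bound activators to RNA polymerase II. Its head, middle and tail modules form the core, and a separable kinase module carries CDK8 and cyclin C. TAF9B is a close relative of TAF9 that can take its place as the histone-fold partner of TAF6, is shared by TFIID and SAGA-type coactivator complexes, and has been linked to neuronal gene expression.

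Every level and difference below is on the log2 scale of the deposited values, and a gene value summarises all kept probe sets of a gene on an array. The family was selected on gene values of this same comparison, the unequal differences of Taf9b and Taf9 above all, so the differences are descriptions. The adjusted p values come from the fit across all 16524 genes and are printed to show which genes reached the call (adjusted p under 0.05). They are not evidence about the family.

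Upstream sequence is shown for the 4 members on which the account turns most, the pair Taf9b and Taf9, with unequal differences, and the pair Cdk8 and Ccnc, with differences of like size. The sequences are from RefSeq (GRCm38.p6), whose promoter table held 49 of the 56 members. Each covers the 250 bases before the first listed start, 5′ to 3′ on the gene's strand. The capitals mark GGGCGG (the GC box), CACGTG (an E-box), CCAAT and CCGGAA (an ETS core), on either strand. The windows are chrX:106221159-106221408 on the minus strand for Taf9b, and on the plus strand chr13:100651093-100651342 for Taf9, chr5:146231000-146231249 for Cdk8 and chr4:21727451-21727700 for Ccnc.
Taf9b: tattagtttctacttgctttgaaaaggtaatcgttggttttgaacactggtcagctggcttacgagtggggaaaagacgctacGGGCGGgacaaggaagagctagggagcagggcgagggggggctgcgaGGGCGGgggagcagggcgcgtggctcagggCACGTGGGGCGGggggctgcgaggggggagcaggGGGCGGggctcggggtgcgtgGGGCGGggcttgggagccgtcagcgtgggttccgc
Taf9: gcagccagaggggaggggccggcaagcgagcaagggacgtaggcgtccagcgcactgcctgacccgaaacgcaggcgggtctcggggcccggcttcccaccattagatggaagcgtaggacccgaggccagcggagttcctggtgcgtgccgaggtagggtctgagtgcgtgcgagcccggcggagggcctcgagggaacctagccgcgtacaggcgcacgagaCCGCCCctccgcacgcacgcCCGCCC
Cdk8: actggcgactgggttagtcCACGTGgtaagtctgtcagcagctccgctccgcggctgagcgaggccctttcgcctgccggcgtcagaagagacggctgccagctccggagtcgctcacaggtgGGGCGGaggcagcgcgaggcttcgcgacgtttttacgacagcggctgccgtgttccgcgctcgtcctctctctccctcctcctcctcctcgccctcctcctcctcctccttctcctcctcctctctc
Ccnc: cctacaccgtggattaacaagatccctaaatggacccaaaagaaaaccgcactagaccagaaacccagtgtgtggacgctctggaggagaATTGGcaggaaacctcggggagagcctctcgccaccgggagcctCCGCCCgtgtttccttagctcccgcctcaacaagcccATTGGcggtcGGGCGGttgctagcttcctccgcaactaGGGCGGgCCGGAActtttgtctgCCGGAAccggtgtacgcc

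The Taf9b window held 5 matches to GGGCGG and 1 to CACGTG, and the Taf9 window 2 matches to GGGCGG. Cdk8 had 1 match to GGGCGG and 1 to CACGTG. Ccnc had 3 matches to GGGCGG, 2 to CCAAT and 2 to CCGGAA. None of these 4 windows held TATAAA, the TATA box, and no match overlapped another. Over all listed starts, GGGCGG was in 63.3% of 60 member windows and in 32.7% of 32851 windows of all genes. For CCGGAA it was 20 of the 60 and 3952 of the 32851, and for CCAAT 21 of the 60 and 11120 of the 32851. The shares of member and of all windows were 13.3% and 12.4% for TATAAA, and 11.7% and 6.0% for CACGTG. A match describes the letters and is not a binding site. The first listed start window of Taf9 is also that of Ak6, its neighbour, for which no probe set carries its own symbol.

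Taf9b was the one member with a called difference in the fit without the replicate number. With that number as a block, limma called 6 members higher, Taf9b among them, and 5 lower, beside 23.2% of all genes. The Taf9b gene value was 10.39, 10.36 and 10.39 in control replicates 1 to 3 and 11.30, 11.34 and 11.31 with the Cugbp1 shRNA. The groups lay far apart, and within each group the arrays differed by a few hundredths. The means were 10.38 ± 0.017 (SD, n = 3) and 11.31 ± 0.023 (SD, n = 3), a difference of 0.93 (standard error 0.08), or 1.91-fold (95% confidence interval 1.67 to 2.18). By replicate number the rise was 0.91, 0.98 and 0.91. The adjusted p was 0.0123 in limma over all genes (0.00158 to 0.0969 over the 13 alternative fits other than the replicate block, and 0.00169 with it), and 20 of the 16524 genes were called with a rise of at least this size. Its call was lost without control replicate 2 (0.92, adjusted p = 0.0969), Cugbp1 shRNA replicate 2 (0.92, adjusted p = 0.0921) or Cugbp1 shRNA replicate 3 (0.94, adjusted p = 0.0747), settings in which limma called 0 genes in all.

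Taf9, which encodes the paralogous core subunit, showed a small difference with overlapping groups. Its values were 10.00, 10.06 and 9.77 in control and 10.00, 10.18 and 10.14 in Cugbp1 shRNA arrays. The lowest array was control replicate 3, and replicate 1 was nearly equal in both groups. The difference was 0.16 (standard error 0.11, 95% confidence interval -0.10 to 0.42, limma adjusted p = 0.531), and 0.074 without control replicate 3. RefSeq lists a Taf9 pseudogene, and the paralogs are related in sequence, so some probes may read more than 1 copy.

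The balance of the pair, Taf9b minus Taf9 within an array, was 0.39, 0.30 and 0.62 in control and 1.30, 1.16 and 1.16 in Cugbp1 shRNA arrays. Every Cugbp1 shRNA array was above every control array. The mean moved from 0.44 ± 0.17 (SD, n = 3) to 1.21 ± 0.079 (SD, n = 3), a shift of 0.77. By replicate number the shift was 0.91, 0.86 and 0.54, the smallest being in replicate 3, where Taf9 was low in the control. As the pair was chosen for its difference, this shift carries no test. The offset between probe sets of different genes has no meaning as a ratio of transcripts, and only its change between arrays can be read.

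**Figure D1:**
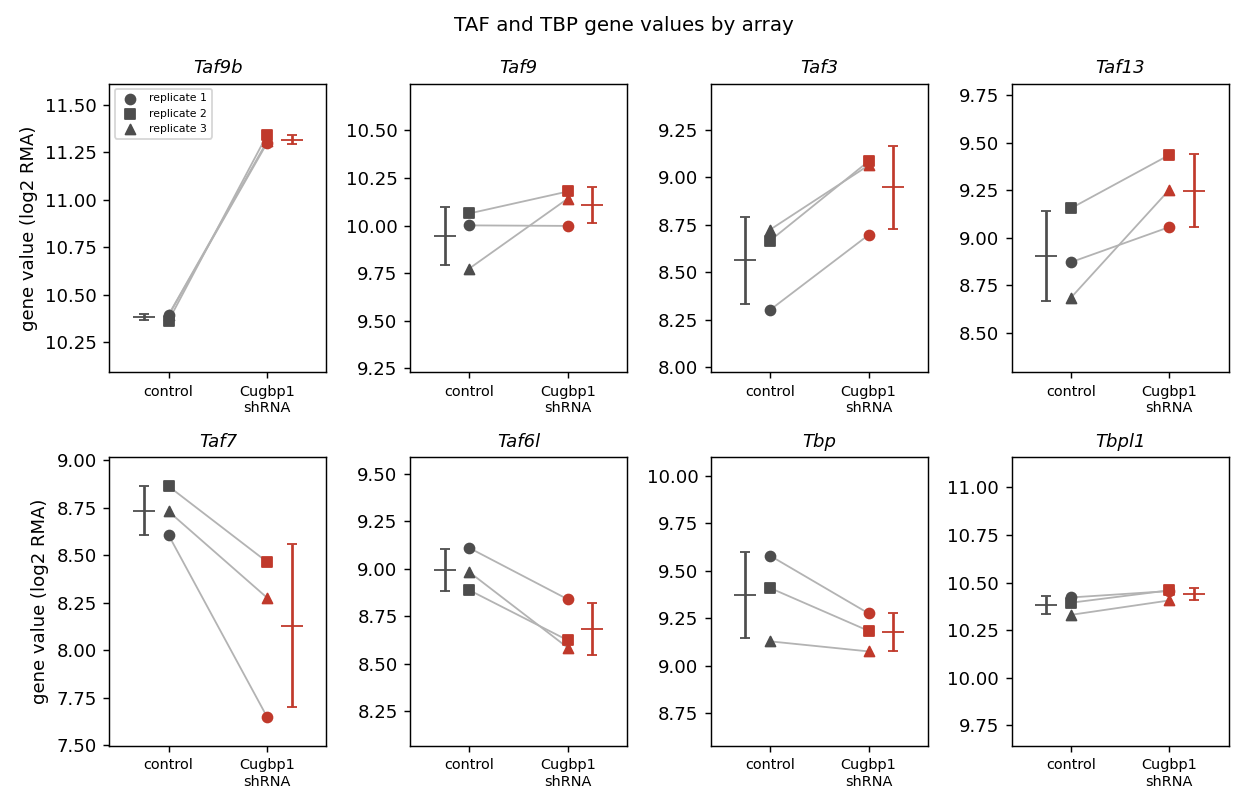
Gene values (log2 RMA, vertical axes of equal span) of 8 TAF and TBP genes on the 3 control and 3 Cugbp1 shRNA arrays. Lines join arrays of the same replicate number, and bars beside the points give mean ± SD. Taf9b rose from about 10.38 to 11.31 with little spread, while the Taf9 groups overlapped and Taf7 was lowest in Cugbp1 shRNA replicate 1.

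The rise of Taf9b was seen in nearly all of its probe sets, whose places along the gene were not used here. They make up the gene value on which the family was selected. All 11 of its probe sets were kept, all 11 had a higher mean with the Cugbp1 shRNA, and in 10 the groups did not overlap. The differences ranged from 0.08 to 1.17, with a median of 1.02. Of 17 kept Taf9 probe sets, 14 had a higher mean, the groups of 2 did not overlap, and the median difference was 0.20. No probe set of either gene passed limma over all probe sets, where the smallest adjusted p was 0.0981 for Taf9b and 0.396 for Taf9.

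The probe set of Taf9b that did not follow the others was 5345311. It read 6.69, 7.81 and 7.19 in control and 7.11, 7.24 and 7.58 in Cugbp1 shRNA arrays, so its groups overlapped. It was also the lowest probe set of the gene on average in control arrays. Exon usage, the difference of a probe set relative to the rest of its gene, was -0.90 for it (standard error 0.17, diffSplice adjusted p = 0.0114). diffSplice pools the variance over the probe sets of a gene, so this standard error is not the spread of this probe set. A limma test of the probe set value minus the gene value was also run, with a separate variance for every probe set. It called 0 of all 244606 probe sets, so its lack of a call here cannot weigh on the diffSplice call. Where this probe set lies in the gene was not used here.

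**Figure D2:**
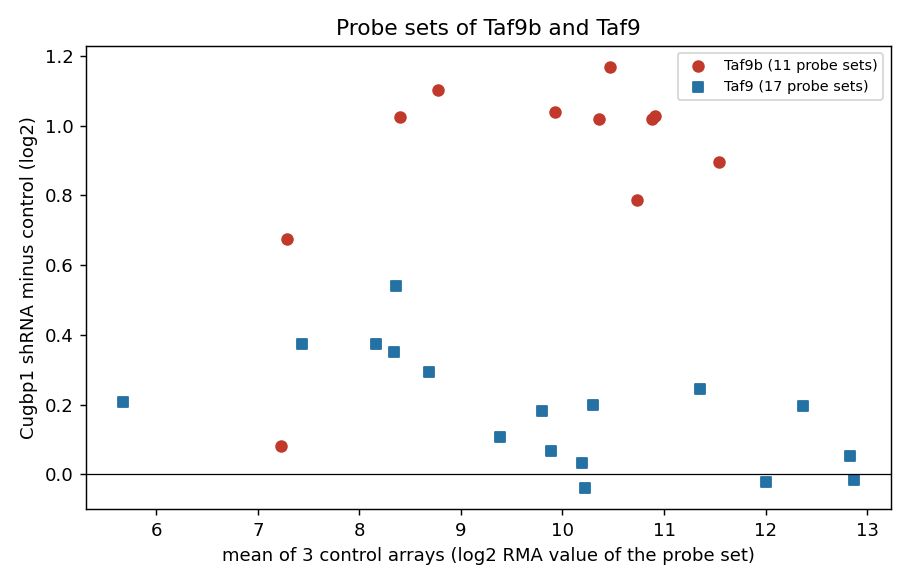
Difference between Cugbp1 shRNA and control (log2, vertical) against the mean of the 3 control arrays (log2 RMA, horizontal) for the 11 kept probe sets of Taf9b and the 17 of Taf9, 1 point per probe set. Of the Taf9b probe sets 10 lie between 0.68 and 1.17 and 1 at 0.08, while the highest Taf9 probe set is at 0.54.

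Neither gene next to Taf9b on the X chromosome in RefSeq was called. These neighbours were looked up after the values were seen. Pgk1, a glycolytic enzyme gene, was at -0.19 (standard error 0.10, limma adjusted p = 0.374, and 0.0721 in the blocked fit). It was lower in each replicate number, and its groups did not overlap. Fnd3c2 was at -0.034 (standard error 0.12, adjusted p = 0.948). Only 3 of its 31 probe sets were kept, and its means were low, 6.51 in control and 6.48 with the Cugbp1 shRNA, beside a filter value of 5.73. Of the tested neighbours of Taf9, Rad17, a DNA damage checkpoint gene, was at -0.30 (standard error 0.12, limma adjusted p = 0.258, and 0.0248 in the blocked fit), and Ccdc125 at -0.098 (standard error 0.13, adjusted p = 0.804).

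Across the family, limma called 1 of 55 members higher, Taf9b, and 0 lower, where it called 3.96% of all 16524 genes, 1.11% higher and 2.86% lower. At an unadjusted p under 0.05 there were 4 members higher and 3 lower, 7 of 55, where 18.7% of all genes passed that threshold. The median difference of the 55 members was 0.00086, against -0.015 over all genes tested, and 43 lay within 0.2 of 0. The groups did not overlap for 6 members higher and 4 lower, beside 25.2% of all genes (10.8% higher and 14.4% lower). In each replicate number 14 of the 55 members were higher and 16 lower, beside 4261 and 5208 of the 16524 genes. For 47 members the difference was no larger than the range of the 3 control arrays.

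Arrays of the same replicate number deviated alike across the members, as they did over all genes. After each group mean was taken off, a control array and the Cugbp1 shRNA array of its number correlated across the 55 members at 0.79, 0.73 and 0.75. Over all genes the correlations were 0.76, 0.50 and 0.71. The members share arrays and are not independent. When the replicate number entered the fit as a block, 6 members were called higher and 5 lower. That fit called 23.2% of all genes, 9.33% higher and 13.9% lower. The members called with the block were Taf9b, Taf3, Taf13, Taf1a, Cdk8 and Ccnc on the higher side and Taf7, Taf6l, Med12, Med1 and Med21 on the lower.

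**Figure D3:**
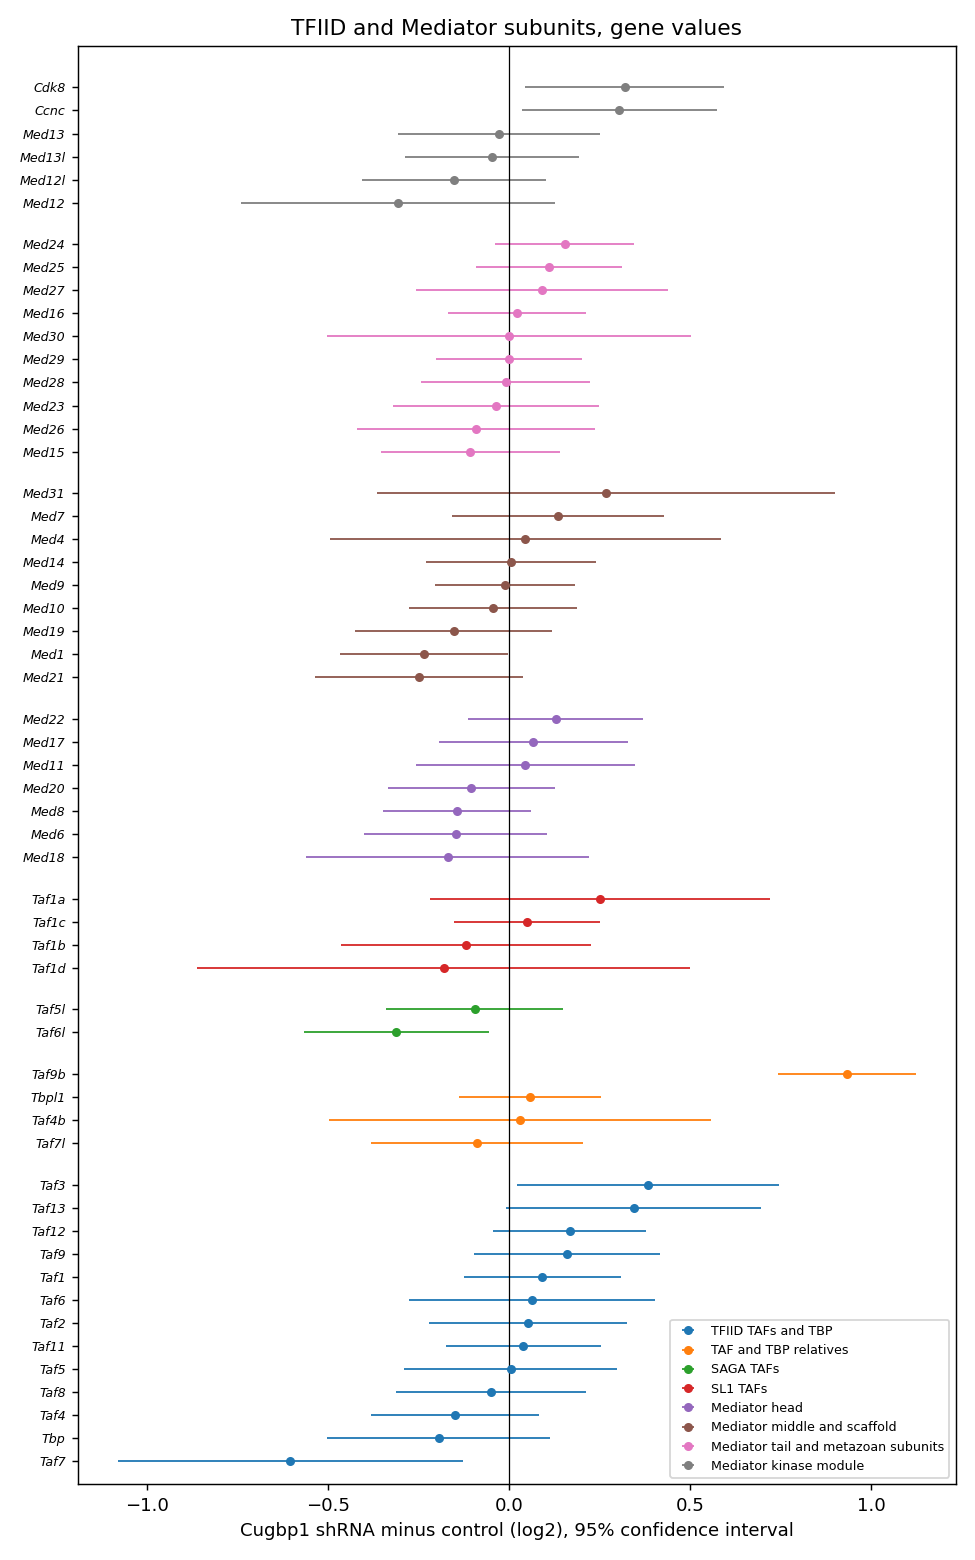
Difference between Cugbp1 shRNA and control (log2, horizontal) with its 95% confidence interval for the 55 members tested, 1 per line, coloured by role. Taf9b stands at 0.93, Taf7 is lowest at -0.60 with a wide interval, and 43 of the 55 points lie within 0.2 of 0.

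Among TFIID core subunits, 9 of 13 measured had a higher and 4 a lower mean, where 46.5% of all genes had a higher mean. Of these 13, limma called 0. Taf3 and Taf7, 2 of 13, had an unadjusted p under 0.05, beside 18.7% of all genes. The median of the 13 was 0.052. Tbp, whose product contacts the TATA box, read 9.58, 9.41 and 9.13 in control and 9.28, 9.18 and 9.08 in Cugbp1 shRNA arrays. It was lower in each replicate number, but the groups overlapped (-0.19, standard error 0.13, limma adjusted p = 0.523). Taf1, the largest subunit and scaffold, differed by 0.09, Taf2 by 0.05, Taf5 by 0.0051 and Taf6 by 0.06.

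Taf3, whose product reads trimethylated histone H3 lysine 4 at promoters, read 8.30, 8.67 and 8.72 in control and 8.70, 9.08 and 9.06 in Cugbp1 shRNA arrays. Each Cugbp1 shRNA array was above the control array of its number, by 0.39, 0.42 and 0.34, yet the lowest Cugbp1 shRNA array overlapped the control range. The difference was 0.38 (standard error 0.16, limma adjusted p = 0.238), and it was called with the replicate block (adjusted p = 0.00757). Without control replicate 1 it was 0.25. Of 18 Taf3 probe sets, 17 had a higher mean.

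Taf13, a histone-fold subunit, had a higher mean too, with 8.87, 9.16 and 8.68 in control and 9.06, 9.44 and 9.25 in Cugbp1 shRNA arrays. All 8 of its probe sets had a higher mean. The difference was 0.35 (standard error 0.15, limma adjusted p = 0.277, and 0.0349 in the blocked fit). Its partner Taf11 differed by 0.04 (adjusted p = 0.905). Taf12, the histone-fold partner of TAF4, had groups that did not overlap and a difference of 0.17 (adjusted p = 0.397), while Taf4 (Taf4a in the probe annotation) was at -0.15 (adjusted p = 0.514) and lower in each replicate number.

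Taf7, which binds TAF1 and restrains its activity, had the lowest difference in the family. It read 8.61, 8.86 and 8.73 in control and 7.65, 8.47 and 8.28 in Cugbp1 shRNA arrays, with Cugbp1 shRNA replicate 1 far below the rest. The difference was -0.60 (standard error 0.20, limma adjusted p = 0.162, and 0.0154 in the blocked fit), and without Cugbp1 shRNA replicate 1 it was -0.36 (adjusted p = 0.204). Only 3 of its 5 probe sets were kept, all with a lower mean. With no filter, so that all 5 entered, the difference was -0.33 (limma adjusted p = 0.207). For Taf10, the gene not tested, its own probe set differed by 0.14, and the 6 shared ones by -0.16 to 0.17.

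None of the other 3 relatives of TFIID subunits was called, and the differences from Taf9b were not tested. Tbpl1, a TBP-like factor that does not bind the TATA box, read 10.42, 10.39 and 10.33 in control and 10.46, 10.46 and 10.41 in Cugbp1 shRNA arrays. The groups overlapped by a small margin, and the difference was 0.06 (standard error 0.08, 95% confidence interval -0.14 to 0.25, limma adjusted p = 0.822). Its sign turned when probe sets were averaged in place of median polish (-0.0044). Taf4b, a relative of Taf4, differed by 0.03, with controls spread from 6.60 to 7.53. Taf7l, a relative of Taf7 known mainly from germ cells and fat, was at -0.09 (adjusted p = 0.819), with 4 of 16 probe sets kept, and was positive without Cugbp1 shRNA replicate 2 (0.033).

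The TAF-like subunits that belong to SAGA-type complexes were both lower in each replicate number, as were 5208 of all 16524 genes. Taf6l read 9.11, 8.89 and 8.98 in control and 8.84, 8.62 and 8.58 in Cugbp1 shRNA arrays, and the groups did not overlap. The difference was -0.31 (standard error 0.11, limma adjusted p = 0.178, and 0.0173 in the blocked fit), and all 13 of its probe sets had a lower mean. Taf5l was at -0.10 (standard error 0.10, adjusted p = 0.742).

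Among the SL1 subunits, which serve RNA polymerase I at ribosomal RNA genes, 2 had a higher and 2 a lower mean, and limma called 0 of the 4, with 0 at an unadjusted p under 0.05. Taf1a read 9.36, 8.79 and 8.69 in control and 9.47, 9.15 and 8.98 in Cugbp1 shRNA arrays, so replicate 1 was high in both groups. The difference was 0.25 (standard error 0.20, limma adjusted p = 0.605), and it was called with the replicate block (adjusted p = 0.0480). Leaving out control replicate 1 gave 0.46, and leaving out Cugbp1 shRNA replicate 1 or control replicate 3 gave 0.12. Taf1d was at -0.18 with controls from 7.90 to 8.98 (standard error 0.29, adjusted p = 0.850), and at 0.025 without control replicate 1. Taf1b was at -0.12 and Taf1c at 0.05.

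Over the 32 Mediator genes, 15 had a higher and 17 a lower mean, with a median of -0.010, and limma called 0, with 3 of 32 at an unadjusted p under 0.05, beside 18.7% of all genes. The differences ranged from -0.31 to 0.32, and both ends lay in the kinase module. The replicate block called 2 higher and 3 lower, where it called 9.33% of all genes higher and 13.9% lower.

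In the kinase module, the kinase and its cyclin had higher means and the subunit that activates them a lower one, none of them called without the replicate block. Cdk8 read 9.70, 9.92 and 9.64 in control and 9.94, 10.22 and 10.06 in Cugbp1 shRNA arrays. Ccnc, which encodes cyclin C, read 8.96, 9.25 and 9.01 in control and 9.27, 9.51 and 9.36 in Cugbp1 shRNA arrays. For both genes the groups just failed to touch, and replicate 2 was the highest array in each group.

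The difference was 0.32 for Cdk8 (standard error 0.12, limma adjusted p = 0.196) and 0.30 for Ccnc (standard error 0.12, limma adjusted p = 0.206). The block brought both under the threshold, to an adjusted p of 0.0180 and 0.0156. By replicate number Cdk8 was higher by 0.24, 0.30 and 0.42 and Ccnc by 0.31, 0.25 and 0.35. Of 27 Cdk8 probe sets 26 had a higher mean, as had 17 of 19 for Ccnc.

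Med12, the subunit that joins cyclin C and activates CDK8, read 9.71, 9.65 and 9.19 in control and 9.47, 9.26 and 8.92 in Cugbp1 shRNA arrays. Replicate 3 was low in both groups and the groups overlapped, but each Cugbp1 shRNA array was below the control array of its number, with differences of -0.25, -0.40 and -0.28. The difference was -0.31 (standard error 0.19, limma adjusted p = 0.459, and 0.0186 in the blocked fit), and 50 of 52 probe sets had a lower mean. Leaving out the replicate 3 array gave -0.47 for the control one and -0.16 for the Cugbp1 shRNA one. Its paralog Med12l was at -0.15 (adjusted p = 0.549), with 53 of 62 probe sets lower. Med13 and Med13l, which link the module to the core, were at -0.03 and -0.05. Cdk19, the paralog of Cdk8, was at 0.11 (adjusted p = 0.848).

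**Figure D4:**
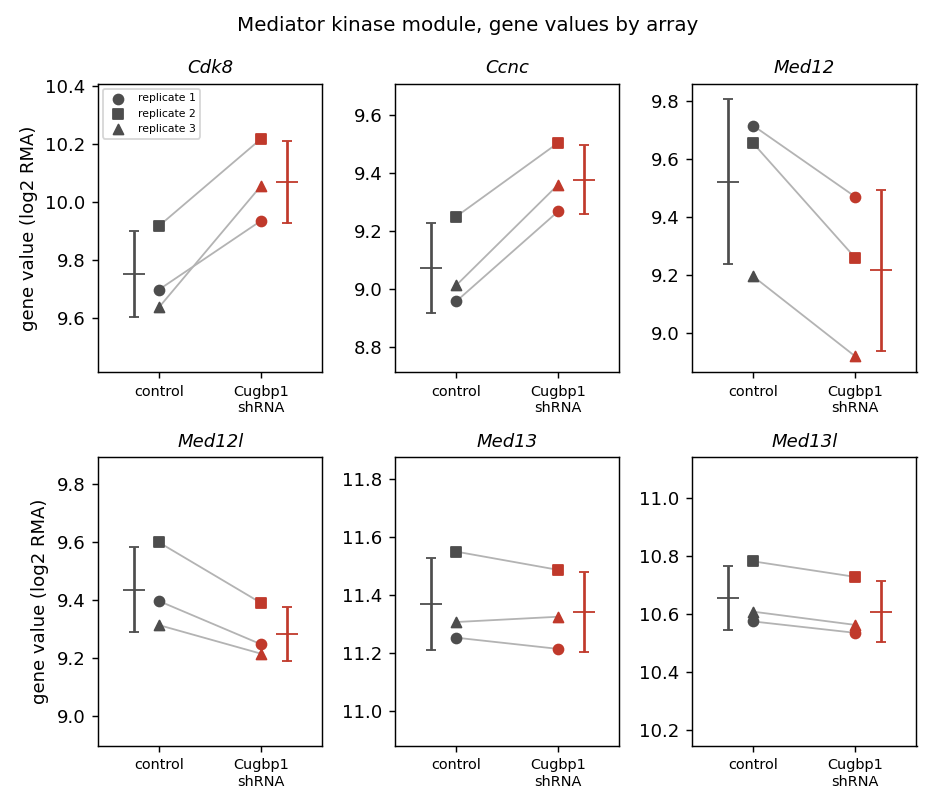
Gene values (log2 RMA, vertical axes of equal span) of the 6 Mediator kinase module genes on the 3 control and 3 Cugbp1 shRNA arrays. Lines join arrays of the same replicate number, and bars give mean ± SD. Cdk8 and Ccnc are higher in all 3 pairs, Med12 and Med12l lower in all 3, and Med13 and Med13l nearly level.

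In the middle module, Med1, the main contact of nuclear receptors, read 11.27, 11.36 and 11.11 in control and 11.03, 11.05 and 10.96 in Cugbp1 shRNA arrays. The groups did not overlap, and 26 of 27 probe sets had a lower mean. The difference was -0.23 (standard error 0.10, limma adjusted p = 0.261, and 0.0413 in the blocked fit). Med21, a small subunit of the same module, was lower in each replicate number and had a difference of -0.25 (standard error 0.12, adjusted p = 0.347, and 0.0333 in the blocked fit). Med14, the backbone that joins head, middle and tail, was nearly level at 0.0048 with 43 probe sets (95% confidence interval -0.23 to 0.24).

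The other middle subunits gave no called difference. Med19 was at -0.15 (limma adjusted p = 0.581) and lower in each replicate number, and Med7 at 0.14 (adjusted p = 0.678). Med31 had the highest difference of the module, 0.27 (standard error 0.27, adjusted p = 0.713), but its controls spanned 7.77 to 8.86, and it was lower in replicate 1 and higher in replicates 2 and 3. It was 0.59 without control replicate 1, 0.14 without Cugbp1 shRNA replicate 1, 0.17 without control replicate 2 and 0.044 without control replicate 3. Med4, Med9 and Med10 were within 0.1 of 0.

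Of the 7 head subunits, 3 had a higher and 4 a lower mean, all 7 within 0.2 of 0, with a median of -0.10. Med18, at -0.17 (standard error 0.17, limma adjusted p = 0.707), was the lowest and Med22, at 0.13 (standard error 0.10, adjusted p = 0.607), the highest. Med8 was the only head subunit whose groups did not overlap, at -0.14 (adjusted p = 0.465), and Med6 was at -0.15 (adjusted p = 0.567). Med17, the architectural centre of the head, differed by 0.07. Med20 was at -0.10, and it was called lower only when probe sets under the 75th percentile were left out.

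The 10 tail and metazoan subunits varied least among the Mediator modules, from -0.11 to 0.15 with a median of 0.00076. Med24 read 9.96, 10.01 and 10.00 in control and 10.15, 10.18 and 10.12 in Cugbp1 shRNA arrays. Its groups did not overlap and its spread was small, but the difference of 0.15 (standard error 0.08) was not called (limma adjusted p = 0.391). Med25, a target of activators and the other tail gene whose groups did not overlap, was at 0.11 (adjusted p = 0.590). Med15, the contact of several activators and the lowest of these genes, was at -0.11 (adjusted p = 0.707).

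Of 998 member probe sets tested with diffSplice, 1 was called, the Taf9b probe set described above, where 0.0822% of 244606 probe sets were called in all. With the replicate block 10 were called, beside 2.37% of all. They lay in Taf9b, Med13l (3 probe sets), Med10, Ccnc, Taf1, Med12l, Med13 and Med12. The next smallest p values after Taf9b were at probe set 5549667 of Med13l, 0.64 relative to its gene (adjusted p = 0.622), 4961631 of Med10 at 0.80 (adjusted p = 0.691), 4681009 of Ccnc at 0.72 (adjusted p = 0.717) and 5084844 of Med22 at -0.60 (adjusted p = 0.817). A limma test of the splicing index, the probe set value minus the gene value, used a separate variance for every probe set. It called 0 of all 244606 probe sets, so its 0 calls among members say nothing about them. Of the 998 member probe sets, 31 had an unadjusted p under 0.05 in this test, and the share over all probe sets was not taken.

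The rest of the transcription machinery was read from lists of 58 genes, of which 57 were measured. Of these, limma called 0 higher and 3 lower, where the shares for all genes were 1.11% and 2.86%, and 16 of 57 had an unadjusted p under 0.05, beside 18.7% of all genes. The called genes were Atxn7l3, a subunit of the SAGA deubiquitinase, at -0.69 (standard error 0.09, adjusted p = 0.0182), Supt6, a histone chaperone of elongation, at -0.48 (adjusted p = 0.0384), and Polr2m at -0.44 (adjusted p = 0.0482). The replicate block called 9 of the 57 higher and 10 lower, where it called 9.33% of all genes higher and 13.9% lower.

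The 13 RNA polymerase II genes had 11 higher and 2 lower means and a median of 0.15. Over all genes 46.5% had a higher mean, and the median was -0.015. Genes of a list share arrays and are not independent. Polr2l was at 0.31 (limma adjusted p = 0.113, and 0.0244 in the blocked fit). The 20 general factor genes had a median of 0.076. Among them Gtf2b, which encodes TFIIB, was at 0.43 (adjusted p = 0.0886, and 0.0306 in the blocked fit), and Cdk7, the kinase of TFIIH, at -0.56 (adjusted p = 0.103, and 0.00293 in the blocked fit). Of 13 SAGA genes measured, 5 had a higher and 8 a lower mean. Kat2a, its acetyltransferase, was at -0.46 (adjusted p = 0.0774, and 0.00649 in the blocked fit). The 11 genes of the kinase and elongation list had a median of 0.11, with Nelfe at -0.25 (adjusted p = 0.188, and 0.0296 in the blocked fit).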

How the data were processed

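The authors deposited log2 RMA values, 1 per exon probe set, made with Affymetrix Expression Console per the submitters' processing notes, which name mm9. RMA removes differences in total signal between arrays. The software version is not given in the sources used here. Array medians were 5.74 to 5.78, and the number of arrays limits the precision. Probe sets at or above the median mean of all 1195555 (5.73) were kept, and genes with at least 3 kept probe sets of their own received a Tukey median polish value. Symbols were updated through RefSeq (GRCm38.p6). Differences were fitted with limma 3.58.1 in R 4.3.3 with Benjamini-Hochberg adjustment, exon usage with diffSplice, and the scripts were tested on simulated data. The simulated arrays were not paired by replicate number, and for diffSplice the probe sets of a gene had the same variance. Members and lists were chosen with earlier results of these data known. Named members are Taf9, Taf9b, Tbp, Tbpl1, Cdk8, Ccnc, called genes, the extremes of each role and the smallest p values, 30 in all. Others named were chosen after their values were seen. Replicate 1 of each group was numbered by exclusion. Same-numbered arrays deviated together (correlations 0.76, 0.50 and 0.71 over all genes), so the number pairs the arrays. Alternatives were quantile normalization, other filters and summaries, trend and robust variances, the replicate block, leaving out each array, and 3 settings added after seeing the data.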

Additional observations from a re-analysis of the deposited data

How the results depend on the processing

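Taf9b kept its direction in the 13 alternative fits other than the replicate block, from 0.89 to 1.00, and in the block (0.93), and lost its call in the 3 named in the report. The count of members called higher was 6 with the replicate block and 0 to 1 without single arrays. The count called lower was 5 with the block and 1 with the filter at the 75th percentile. Of the other machinery genes, limma called 9 higher with the block and 1 with replicates 2 and 3 only. It called 10 lower with the block, 1 with means of probe sets, 1 with at least 1 probe set per gene, 1 with replicates 2 and 3 only, and 0 to 1 without single arrays. Over all genes 1541 were higher and 2294 lower with the block, 363 and 735 with trend and robust variances, 55 and 163 with at least 1 probe set per gene, and 363 higher with the filter at the 75th percentile. Without single arrays there were 0 to 214 higher and 0 to 445 lower, with 0 in all without control replicate 2, Cugbp1 shRNA replicate 2 or Cugbp1 shRNA replicate 3, where 2271, 2118 and 2111 genes had an unadjusted p under 0.05. The kinase module median was -0.10 to 0.040 without single arrays. Member probe sets called for exon usage numbered 10 with the block, 0 with the filter at the 75th percentile, and 0 to 4 without single arrays. They numbered 0 with either splicing index, which called 0 of all 244606 probe sets. Tbpl1 reversed to -0.0044 with means of probe sets, Taf7l spanned -0.17 to 0.033 and Taf1d -0.52 to 0.025 without single arrays. Celf1 and the 30 named members make 31 genes. Of these, 19 had a difference that grew or shrank by over 1.5 times, or changed sign, when 1 array was left out. The causes were not tested. The block changed no call of a named gene beyond those given in the report.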
